A study of Mus musculus with 12 samples.

Results

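The CBL/RUNX1 double mutant was compared with wild type in haematopoietic stem and progenitor cells (HSPC, spelled HSCPs in the labels) from mouse bone marrow. The comparison used 4 of the 12 RNA sequencing libraries of the series, 2 from each genotype. Its members were the genes with 1 TPM or more in at least 2 of these 4 libraries, which gave 11618 of the 28987 genes in the table. TPM is the length-corrected share of a gene in the transcripts of a library. Gpd1 and Cd3d passed this threshold most narrowly, with second highest values of 1.00013 and 1.00131 TPM, and Gm20536 and Mboat2 missed it most narrowly, with 0.998 and 0.997 TPM.

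All 12 libraries came from mice of the C57BL/6 background, in 6 groups of 2. The 8 HSPC libraries were CBL/RUNX1 mutant, RUNX1 mutant, CBL mutant or wild type, and the other 4 were from Ly6G+ myeloid cells of CBL/RUNX1 mutant or wild type marrow. Marrow was taken from individual mice, HSPC were enriched with a kit that selects CD117, the receptor encoded by Kit, and mutant cells were sorted by FACS as a clone. The labels do not say how the mutations were introduced, which alleles they are, or whether wild type cells passed through the same sort, so a difference in preparation and the mutations cannot be told apart.

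CBL is a ubiquitin ligase that attaches to activated growth factor and cytokine receptors, KIT and FLT3 among them, and sends them for degradation, which ends their signal through RAS, MAPK and STAT proteins. RUNX1 is a DNA-binding transcription factor that pairs with CBFB, is needed for the origin of blood stem cells and guides myeloid and megakaryocyte maturation. Both genes are recurrently mutated in myelodysplastic syndrome and related myeloid neoplasms. HSPC are the immature marrow cells from which neutrophils, monocytes, erythroid cells, platelets and lymphocytes arise.

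Neutrophil markers made up a large part of the mRNA of the wild type HSPC libraries, and plasma cell markers a smaller part. Summed over 10 neutrophil markers, the share of TPM was 32.9% and 35.5% in wild type against 8.999% and 10.2% in double mutant HSPC. In wild type Ly6G+ cells it was 41.3% and 40.7%. For 10 plasma cell markers the share was 4.15% and 4.30% in wild type against 0.0206% and 0.0209% in double mutant HSPC. Igkc alone held most of the wild type share, with 38636 and 40304 TPM. Of the 9 plasma cell markers tested, 6 were called lower and none higher. Xbp1 had 128 and 113 TPM in wild type against 150 and 160 in double mutant HSPC. Of 15 stem and progenitor markers none was at 0 in both libraries of either group, and their sum was 0.0224% and 0.0198% in wild type against 0.0508% and 0.0330% in double mutant HSPC. In wild type Ly6G+ cells that sum was 0.00849% and 0.00925%. In bulk libraries fewer cells of a type and less RNA per cell cannot be told apart, and the part of these cell types in the gene results below was not tested. The RUNX1 mutant pair stood apart, with an SD of the log2 difference between its libraries of 0.701 over genes, against 0.287 in wild type, 0.338 in double mutant and 0.347 in CBL mutant HSPC.

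**Figure D1:**
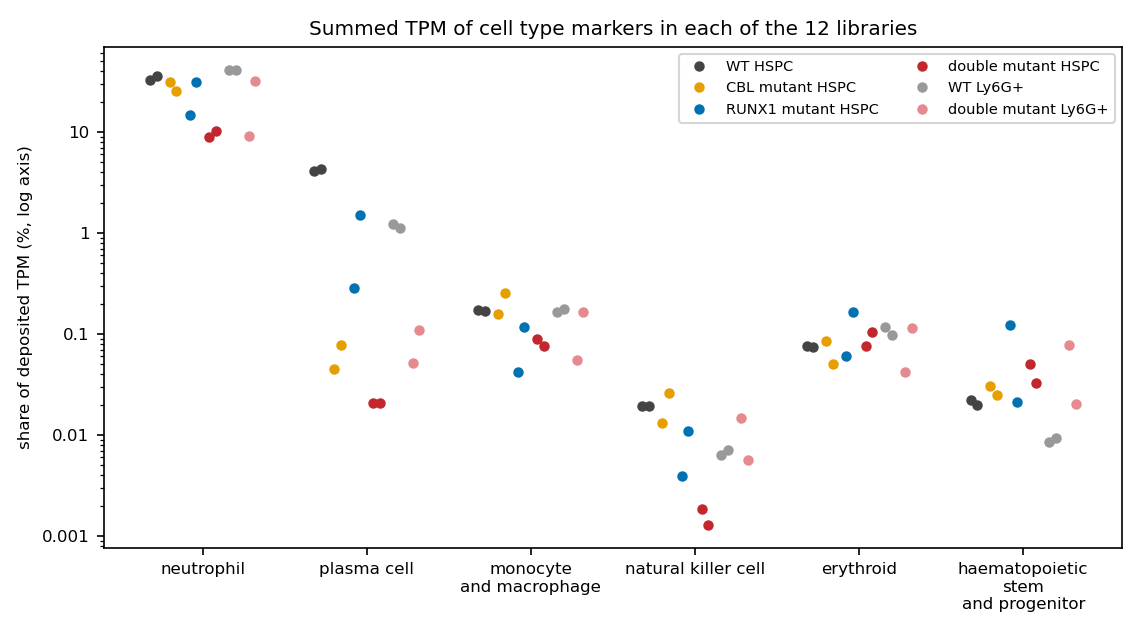
Summed share of deposited TPM (percent, log axis) taken by the markers of 6 cell types, with 1 point for each of the 12 libraries, coloured by group. The double mutant HSPC libraries sit at 8.999% and 10.2% for neutrophil markers, below all other HSPC libraries, and at 0.0206% and 0.0209% for plasma cell markers.

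Against this background the double mutant HSPC had more mRNA of Runx1, Runx3, Cbl, the stefin A genes and the machinery that builds ribosomes, and less of Mecom, neutrophil granule genes, immunoglobulin genes and the Ly6 and IFITM surface genes. The values given below are scaled TPM, the deposited TPM divided by a factor for each library. The factors were computed separately for HSPC and for Ly6G+ libraries, so scaled TPM of the different populations are not on a common scale. Differences are on the log2(scaled TPM + 1) scale, in which the added 1 shrinks the change of genes near or below 1 TPM. A gene was called when its adjusted p from limma was under 0.05, in a fit of all 8 HSPC libraries that compared the 2 libraries of each group. The labels name individual mice as the source without tying a library to a mouse, so the p-values measure the spread between 2 libraries of a group, which may be technical.

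Of the 11618 genes, 1598 were called (13.8%), 645 of them higher (5.55%) and 953 lower (8.20%) in the double mutant. Counts of called genes in the lists below are to be read beside these shares. A list count near them shows nothing particular to that list. At an unadjusted p under 0.05 there were 4214 genes. The median log2 difference was 0.88 among genes called higher and -1.14 among genes called lower, and it was 0.03 over all genes. Among called genes, 257 rose and 552 fell by a log2 difference of at least 1. The values of the 2 groups did not overlap in 8553 genes (73.6%), so separation of 2 libraries from 2 others was common here.

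The number of calls rested on the libraries that set the spread. Without the RUNX1 mutant pair, a fit of 6 libraries called 2295 genes higher (19.8%) and 2351 lower (20.2%), and all 1598 genes above were among them. Leaving out wild type library 1 or 2 left 24 and 21 calls, and leaving out double mutant library 1 or 2 left 56 and 41. Leaving out CBL mutant library 1 or 2 left 245 and 255, and leaving out RUNX1 mutant library 1 or 2 gave 4645 and 4600. Without scaling between libraries the median of all genes moved by 0.57, and 4123 genes were called higher (35.5%) and 437 lower (3.76%). All changes below are therefore relative to the typical gene. Gene lists with a median between -0.30 and 0 below had a positive one without scaling. All 645 higher calls and 856 of the 953 lower calls kept their sign without scaling.

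**Figure D2:**
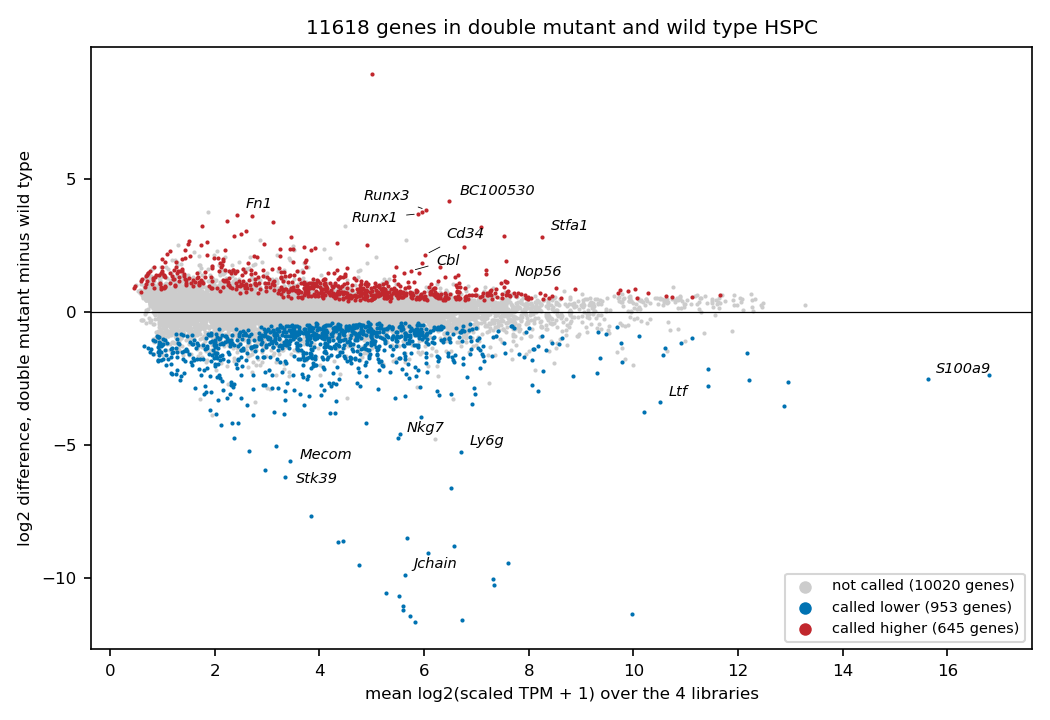
Log2 difference, double mutant minus wild type HSPC, against the mean level on the log2(scaled TPM + 1) scale, with 1 point for each of 11618 genes and with called genes in colour. Called genes lie at all levels, and the falls reach further than the rises, to -9.87 for Jchain among the genes marked.

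Both mutated genes had more mRNA in the double mutant. Cbl (chromosome 9, 44142976 to 44234049 in GRCm38, on the minus strand) had 37.6 and 24.999 scaled TPM in wild type against 82.7 and 100.1 in the double mutant libraries. The groups did not overlap, and Cbl rose by 1.54 ± 0.29 (SE, adjusted p = 0.0265). The CBL mutant libraries had 75.8 and 79.8 scaled TPM and the RUNX1 mutant ones 19.4 and 34.5, so the 4 libraries with a CBL mutation were above the 4 without one. Runx1 (chromosome 16, 92601466 to 92826149, minus strand) had 15.4 and 15.8 scaled TPM in wild type against 206 and 215 in double mutant HSPC, and rose by 3.67 ± 0.41 (SE, adjusted p = 0.00889). In RUNX1 mutant HSPC it had 133 and 48.7 and in CBL mutant HSPC 12.5 and 16.1 scaled TPM. Gene-level values do not separate endogenous from any introduced sequence, for Cbl and Runx1 or for Ngfr.

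Ngfr, which encodes a nerve growth factor receptor, had 194 and 189.9 scaled TPM in wild type against 73.9 and 80.6 in double mutant HSPC, with 0.0309 and 0.0423 in CBL mutant and 38.6 and 180.3 in RUNX1 mutant HSPC. It was high in every HSPC library but the CBL mutant pair, and it was 0.434 and 0.173 in wild type against 39.5 and 83.4 in double mutant Ly6G+ cells. Its difference of -1.30 between double mutant and wild type HSPC was not called (adjusted p = 0.167), but was in the fit of 6 libraries (adjusted p = 0.000134) and with the 4 compared libraries alone (adjusted p = 0.000208). Kit, the receptor used for the enrichment, had 31.1 and 34.2 scaled TPM in wild type against 40.8 and 33.05 in the double mutant, which overlapped (difference 0.17, adjusted p = 0.886).

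RUNX family members rose together. Runx3 (chromosome 4, 135120652 to 135177990, plus strand), a relative of Runx1 with roles in T cell and myeloid differentiation, had 18.1 and 15.01 scaled TPM in wild type against 244 and 247 in the double mutant. The groups were far apart, and Runx3 rose by 3.82 ± 0.43 (SE, adjusted p = 0.00946). Runx2, best known from bone formation, went from 10.9 and 9.37 to 24.3 and 24.1 scaled TPM and rose by 1.18 ± 0.28 (SE, adjusted p = 0.0400). In the other HSPC groups, which share the wild type libraries as their control, Runx3 had 31.9 and 32.04 scaled TPM in CBL mutant and 134 and 45.5 in RUNX1 mutant cells, and Runx2 had 12.8 and 15.3 in CBL mutant and 33.6 and 17.4 in RUNX1 mutant cells. For all 3 family members the double mutant libraries were above the CBL mutant libraries, while RUNX1 mutant library 1 exceeded the double mutant in Runx2.

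Of 19 genes tested in the list of RUNX family members and partners, 4 rose and 2 fell, with a median of -0.08. Ets1, a transcription factor that binds DNA together with RUNX proteins, fell by 2.93 ± 0.37 (SE, adjusted p = 0.0125), from 46.3 and 45.9 to 5.86 and 4.59 scaled TPM. The double mutant values of Ets1 were below those of all 6 other HSPC libraries. The corepressor genes of the Groucho family moved apart, with Tle1 up by 0.98 ± 0.22 (SE, adjusted p = 0.0357) and Tle3 down, at -0.73 ± 0.17 (SE, adjusted p = 0.0387).

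The 300 bases around the distal start of Runx1 and the start of Runx3 are shown because both genes rose and both windows hold the letters TGTGGT, the core of the RUNX binding motif, as a tandem pair on the opposite strand (ACCACA, in capitals). The promoters are those of RefSeq in GRCm38.p6, from 250 bases before to 50 after a start, 5′ to 3′ on the strand of the gene, chr4:135120395-135120694 on the plus strand for Runx3 and chr16:92826025-92826324 on the minus strand for Runx1.
Runx3: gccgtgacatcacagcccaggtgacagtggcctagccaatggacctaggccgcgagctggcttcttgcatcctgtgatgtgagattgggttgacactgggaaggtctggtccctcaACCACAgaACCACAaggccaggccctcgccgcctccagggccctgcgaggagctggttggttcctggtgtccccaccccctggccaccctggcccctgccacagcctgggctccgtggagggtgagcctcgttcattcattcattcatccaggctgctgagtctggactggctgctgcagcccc
Runx1: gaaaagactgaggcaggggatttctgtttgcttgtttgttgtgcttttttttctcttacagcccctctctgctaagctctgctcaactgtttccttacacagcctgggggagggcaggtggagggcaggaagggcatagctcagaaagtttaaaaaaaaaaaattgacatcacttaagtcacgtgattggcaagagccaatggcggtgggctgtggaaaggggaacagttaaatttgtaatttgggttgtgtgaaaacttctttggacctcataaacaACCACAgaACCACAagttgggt
The windows share a run of 18 bases, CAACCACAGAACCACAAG, which holds both copies, and are 41.8% identical over a global alignment. In Runx1 the pair lies just after the start, from base 279 of the window, and in Runx3 before it, from base 117. Which start the mRNA in these libraries used cannot be read from gene-level TPM. TGTGGT was found on either strand in 16.8% of the 32851 promoters of the table, in 12.7% of the 8846 tested genes with a promoter there, in 12.7% of the 480 called higher and in 14.2% of the 726 called lower.

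Of 18 tested members of the list of CBL relatives and adaptors, 3 rose (Cbl itself, Spry2 and Cd2ap) and 1 fell, with a median of 0.02. Cd2ap, which links CBL to the endocytosis of receptors, rose by 1.03 ± 0.23 (SE, adjusted p = 0.0339), from 2.84 and 3.08 to 7.999 and 6.30 scaled TPM. Grb2, the adaptor that couples receptors to RAS, fell by 0.45 on the log2 scale (adjusted p = 0.0492) and had a difference of 0.19 when TPM were left unscaled. The related adaptor gene Grap was among the largest rises, from 0.853 and 0.990 to 10.5 and 15.7 scaled TPM (log2 difference 2.85 ± 0.35, SE, adjusted p = 0.0119).

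Of 12 tested genes that RAS and MAPK signalling induces, 4 rose and 1 fell, with a median of 0.86 against 0.03 over all genes. These were Ccnd1, Spry2, Etv5 and Egr1 and, lower, Phlda1. Ccnd1, which encodes cyclin D1, had 3.62 and 3.88 scaled TPM in wild type against 28.7 and 19.2 in the double mutant and rose by 2.37 ± 0.31 (SE, adjusted p = 0.0146). CBL mutant HSPC were at 27.1 and 14.9 and RUNX1 mutant HSPC at 1.76 and 2.60 scaled TPM, so Ccnd1 was high in the libraries with a CBL mutation. Spry2, an inhibitor of the same pathway, went from 3.64 and 4.43 to 11.4 and 11.7 scaled TPM (log2 difference 1.32 ± 0.19, SE, adjusted p = 0.0173). The transcription factor gene Etv5 went from 1.52 and 1.47 to 8.12 and 4.58 (log2 difference 1.51 ± 0.39, SE, adjusted p = 0.0480). Phlda1 fell, from 6.39 and 6.88 to 2.46 and 1.87 scaled TPM (log2 difference -1.28 ± 0.17, SE, adjusted p = 0.0150).

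Immediate early genes, which answer a stimulus within minutes, split evenly. Of 17 tested, 4 rose and 4 fell, with a median of -0.19. Jun and the phosphatase gene Dusp1 rose by 1.70 and 1.65, and Egr1 and Egr2 by 1.39 and 1.21. Egr1 and Egr2 were under 0.3 scaled TPM in wild type HSPC but between 0.983 and 3.13 in double mutant HSPC, so their rises were to low levels. Btg2, Klf6, Zfp36 and Ier5 fell by 1.68, 1.29, 0.98 and 0.95. Among 14 genes induced through JAK and STAT proteins, none rose and 3 fell, namely the repressor gene Bcl6 (-1.76), the cytokine gene Osm (-1.15) and Gadd45g (-0.71).

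**Figure D3:**
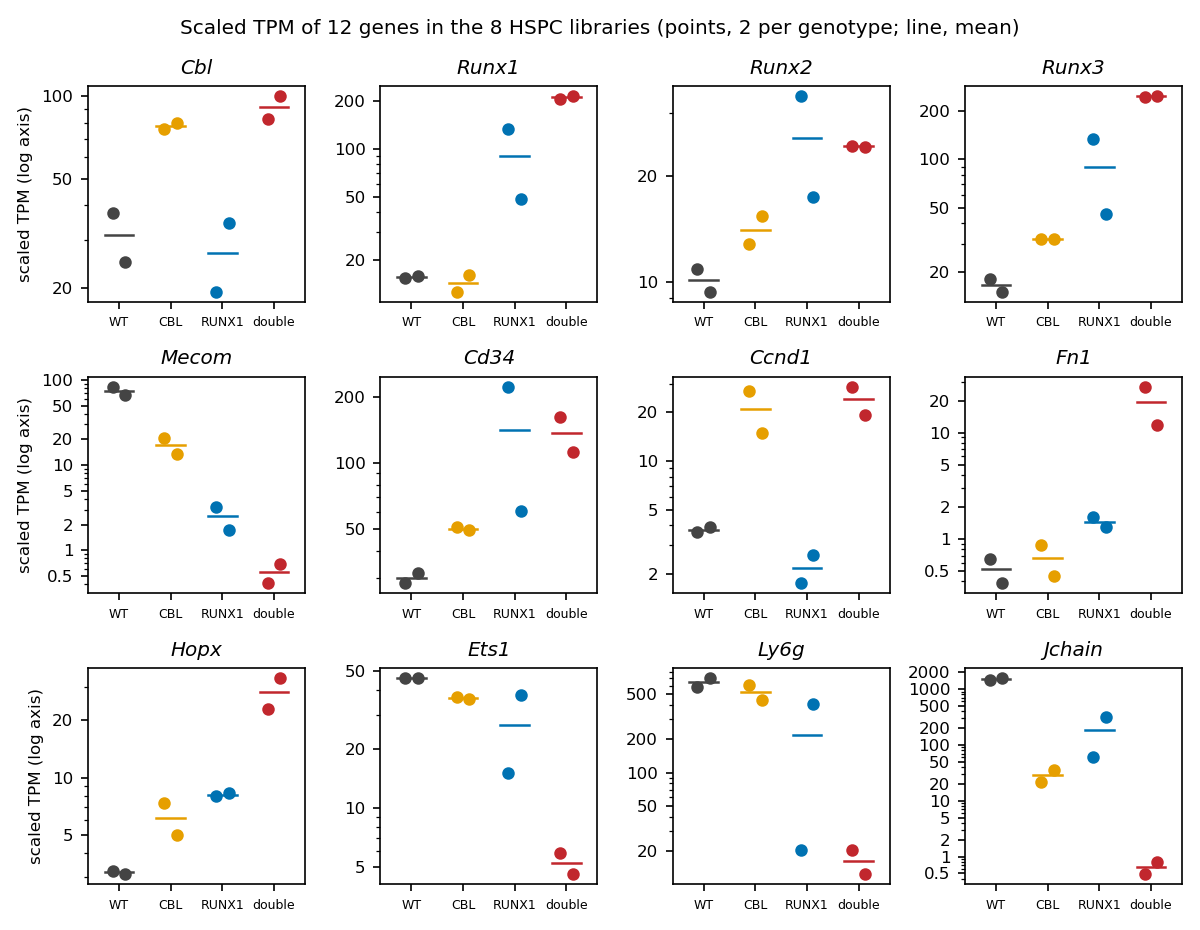
Scaled TPM (log axis) of 12 genes in the 8 HSPC libraries, with 1 point for each library and a line at the mean of its pair. Double mutant points lie above the wild type points for Cbl, the 3 Runx genes, Cd34, Ccnd1, Fn1 and Hopx and below them for Mecom, Ets1, Ly6g and Jchain, and the 2 RUNX1 mutant points are far apart for most genes.

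Mecom and Ly6a, both linked to stem cell identity, fell, while the progenitor marker Cd34 rose. Mecom (chromosome 3, 29951296 to 30548008, minus strand), a transcription factor of long-term stem cells, had 83.1 and 66.1 scaled TPM in wild type against 0.410 and 0.684 in the double mutant, a fall of 5.61 ± 0.29 (SE, adjusted p = 0.000479). It was called whichever of the 8 libraries was left out. CBL mutant HSPC had 20.8 and 13.6 and RUNX1 mutant HSPC 3.23 and 1.74 scaled TPM, so every mutant library was below every wild type one. In wild type Ly6G+ cells Mecom was at 0.0652 and 0.0139 scaled TPM. Ly6a, the stem cell antigen SCA-1, fell by 1.995 ± 0.25 (SE, adjusted p = 0.0123), from 54.1 and 61.5 to 17.98 and 10.4 scaled TPM. Of the 16 tested genes of this list 3 fell and none rose, with a median of 0.37.

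Cd34 had 28.4 and 31.5 scaled TPM in wild type against 163 and 113 in the double mutant, and rose by 2.14 ± 0.53 (SE, adjusted p = 0.0445). Its RUNX1 mutant values were 224 and 60.6. The receptor gene Flt3, added to the description after its values were seen, had 3.25 and 3.50 scaled TPM in wild type against 21.1 and 15.2 in the double mutant without being called (difference 2.11, adjusted p = 0.0987, and 0.0277 in the fit of 6 libraries). Npm1, which encodes nucleophosmin, rose by 0.71 ± 0.12 (SE, adjusted p = 0.0211). Of 21 committed progenitor genes Cd34 and Npm1 rose and 1 fell (Nkg7, described below), with a median of 0.57. The HOX cofactor Pbx3 rose by 1.26 ± 0.23 (SE, adjusted p = 0.0255). Of 22 growth factor and cytokine receptor genes 1 rose and 1 fell (4.55% each), below the 5.55% and 8.20% of all genes. These were the interferon gamma receptor gene Ifngr1 with 1.16 and the type I interferon receptor gene Ifnar2 with -0.51. The Ifnar2 difference was 0.12 with unscaled TPM.

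Several genes of secreted or matrix proteins were nearly silent in wild type HSPC and rose. Fn1, the gene of fibronectin, had 0.652 and 0.385 scaled TPM in wild type against 26.9 and 11.8 in the double mutant (log2 difference 3.65 ± 0.37, SE, adjusted p = 0.00795). Both single mutant pairs stayed at or below 1.596 scaled TPM, and wild type Ly6G+ cells had 6.54 and 8.02. Saa3, an acute phase protein of myeloid cells, went from 0.998 and 0.776 to 31.1 and 15.3 scaled TPM (log2 difference 3.601 ± 0.39, SE, adjusted p = 0.00852). The eosinophil chemokine gene Ccl24 went from 0.517 and 0.392 to 35.7 and 5.41 (log2 difference 3.40 ± 0.76, SE, adjusted p = 0.0359), and double mutant library 1 held most of that difference. In all 3 genes the double mutant libraries were above the other 6 HSPC libraries.

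Pla2g7, which encodes a lipoprotein-associated phospholipase, rose from 1.13 and 1.11 to 21.1 and 12.3 scaled TPM (log2 difference 3.02 ± 0.33, SE, adjusted p = 0.00852). Ecm1, an extracellular matrix gene, went from 6.72 and 7.81 to 48.8 and 46.6 (log2 difference 2.56 ± 0.28, SE, adjusted p = 0.00852). Tfpi, the inhibitor of the tissue factor pathway of clotting, went from 2.43 and 1.93 to 16.6 and 18.3 (log2 difference 2.54 ± 0.45, SE, adjusted p = 0.0242). The double mutant values of these 3 genes were again above all other HSPC libraries, the nearest being a RUNX1 mutant library in each. Hopx, a homeodomain protein without DNA binding that marks quiescent stem cells, rose from 3.23 and 3.11 to 23.1 and 33.5 scaled TPM (log2 difference 2.79 ± 0.23, SE, adjusted p = 0.00270). Otos went from 0.906 and 1.25 to 12.9 and 16.3 (log2 difference 2.91 ± 0.64, SE, adjusted p = 0.0344), with RUNX1 mutant library 1 higher still at 27.9. Among monocyte and macrophage genes, 3 of 21 rose and 1 fell, with a median of 0.04. Beside Fn1 these were F13a1, clotting factor XIII (1.92), the cathepsin gene Ctss (1.44) and, lower, the chemokine receptor gene Cx3cr1 (-1.37).

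Stefin A genes, which encode small inhibitors of cysteine proteases and sit side by side on chromosome 16, rose as a cluster. The cluster was described after its values were seen. Of 8 genes of the cluster in the table, 7 were tested and 6 were called higher, and the other, Stfa3, had 2.71 (adjusted p = 0.0714). Stfa1 (36276951 to 36285373, plus strand) had 104 and 125 scaled TPM in wild type against 571 and 1151 in the double mutant (log2 difference 2.82 ± 0.55, SE, adjusted p = 0.0280). Stfa2 (36403992 to 36408457, minus strand) went from 15.004 and 16.9 to 123 and 416 (log2 difference 3.75 ± 0.79, SE, adjusted p = 0.0320) and Stfa2l1 (36156811 to 36161953, plus strand) from 60.8 and 75.2 to 322 and 757 (log2 difference 2.85 ± 0.70, SE, adjusted p = 0.0433). BC100530 (36359382 to 36367748, minus strand) had the largest rise among genes of the naming rule, which leaves out other predicted genes, from 19.9 and 20.2 to 257 and 551 scaled TPM (log2 difference 4.16 ± 0.53, SE, adjusted p = 0.0130). In each of these genes double mutant library 2 was above library 1, and both were above wild type.

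The 2 remaining called genes of the cluster were Gm5483, with 36.4 and 52.9 scaled TPM in wild type against 225 and 739 in the double mutant (log2 difference 3.19 ± 0.67, SE, adjusted p = 0.0314), and BC117090, which was listed at 0 in both wild type libraries and had 1.54 and 2.99 in the double mutant. In CBL mutant HSPC the values were 829 and 336 for Stfa1 and 438 and 146 for BC100530, so library 1 of that pair exceeded double mutant library 1 in both. In RUNX1 mutant HSPC they were 282 and 609 for Stfa1 and 91.2 and 113 for BC100530. The CBL mutant pair was split in other genes of the cluster. Its library 2 was below both wild type libraries in Stfa2 (10.7), Stfa2l1 (37.7), Stfa3 (12.3) and Gm5483 (24.6), and its library 1 above them. Transcripts of the cluster resemble each other: of the 31-letter words in the annotated transcripts, 43.4% for Stfa1, 41.3% for BC100530, 50.7% for BC117090, 29.3% for Stfa2l1, 26.1% for Stfa2 and 10.2% for Gm5483 occurred in another gene of the cluster, and none for Stfa3. The split of reads between the first 6 genes is therefore uncertain.

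The promoters of 3 stefin A genes are shown because the genes lie in 1 cluster and moved together. TGTGGT or its reverse complement is in capitals, and the windows are chr16:36276898-36277197 (plus) for Stfa1, chr16:36408314-36408613 (minus) for Stfa2 and chr16:36156561-36156860 (plus) for Stfa2l1, from RefSeq in GRCm38.p6.
Stfa1: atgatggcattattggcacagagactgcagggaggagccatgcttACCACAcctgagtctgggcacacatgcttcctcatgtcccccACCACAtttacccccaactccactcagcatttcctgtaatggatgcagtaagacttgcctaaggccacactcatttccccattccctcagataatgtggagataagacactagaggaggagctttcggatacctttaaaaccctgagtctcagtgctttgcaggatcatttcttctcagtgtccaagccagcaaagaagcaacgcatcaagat
Stfa2: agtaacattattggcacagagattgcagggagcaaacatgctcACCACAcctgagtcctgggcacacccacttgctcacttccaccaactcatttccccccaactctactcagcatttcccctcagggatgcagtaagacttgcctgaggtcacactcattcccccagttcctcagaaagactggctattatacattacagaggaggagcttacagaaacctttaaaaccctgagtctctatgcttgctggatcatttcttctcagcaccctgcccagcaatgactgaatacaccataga
Stfa2l1: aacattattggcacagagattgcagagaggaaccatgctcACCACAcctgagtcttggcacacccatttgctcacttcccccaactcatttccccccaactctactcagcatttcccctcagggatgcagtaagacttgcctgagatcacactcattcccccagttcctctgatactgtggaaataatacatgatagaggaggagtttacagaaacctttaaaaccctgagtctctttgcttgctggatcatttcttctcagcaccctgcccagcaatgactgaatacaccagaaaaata
The windows of Stfa2 and Stfa2l1 were 90.5% identical in a global alignment, and each was 79.3% or 79.4% identical to that of Stfa1. Each holds ACCACA near its 5′ end, from base 46 in Stfa1, base 44 in Stfa2 and base 41 in Stfa2l1, and Stfa1 holds a second copy. All 4 stefin A genes with a promoter in the table held these letters, in windows that resemble each other, with 79.3% to 90.5% identity between pairs.

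Of 23 tested genes of secondary and tertiary granules, which neutrophil precursors fill after the promyelocyte stage, 17 fell and none rose, with a median of -2.40, and all 23 had a negative difference under every scaling tried. Ltf, the gene of lactoferrin, had 4639.8 and 4811 scaled TPM in wild type against 578 and 349.7 in the double mutant (log2 difference -3.39 ± 0.60, SE, adjusted p = 0.0237). Padi4, the enzyme that citrullinates histones in neutrophils, went from 218 and 208 to 25.5 and 26.7 (log2 difference -2.98 ± 0.48, SE, adjusted p = 0.0206), and Olfm4 went from 66.6 and 69.6 to 4.83 and 3.13 (log2 difference -3.81 ± 0.62, SE, adjusted p = 0.0208). RUNX1 mutant library 2 was close to wild type in Ltf, at 4955, and library 1 was at 1215. The summed level of the list was 71858 and 82929 scaled TPM in wild type libraries, 13114 and 14075 in double mutant ones, 62113 and 54421 in CBL mutant and 18228 and 69196 in RUNX1 mutant HSPC. No member was called when any 1 of the wild type, CBL mutant or double mutant libraries was left out, and the median then lay between -2.49 and -2.28. The neutrophil marker shares given above moved in the same direction.

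The list named for primary granules, which promyelocytes fill earlier, also holds genes that do not encode proteins of these granules, Igfbp4 among them. Its counts therefore do not describe granule proteins alone, and its members went in both directions. Of 15 tested, 2 rose and 6 fell, with a median of -0.03. Cst7, the gene of cystatin F, had 42.8 and 49.01 scaled TPM in wild type against 235 and 268 in the double mutant and rose by 2.43 ± 0.29 (SE, adjusted p = 0.0108). Igfbp4 rose by 1.06 ± 0.16 (SE, adjusted p = 0.0189). Lyz2, the lysozyme gene of myeloid cells, fell from 6774 and 7675 to 1349.6 and 821 scaled TPM (log2 difference -2.77 ± 0.43, SE, adjusted p = 0.0199). Fcnb, the gene of a soluble pattern receptor, fell by 2.98 ± 0.55 (SE, adjusted p = 0.0248) and the protease inhibitor gene Serpinb1a by 1.45 ± 0.24 (SE, adjusted p = 0.0208).

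The letters TTGCNNAA, which many C/EBP factors recognise, were found on either strand in 7 of 19 promoters of the secondary and tertiary granule genes, in 8.20% of the promoters of all tested genes and in 10.8% of those of the whole table. Ngp, which encodes neutrophilic granule protein and went from 23873 and 27247 to 2537 and 1903 scaled TPM (log2 difference -3.54 ± 0.67, SE, adjusted p = 0.0264), is shown as 1 of the 7 (chr9:110419558-110419857, plus strand, matches in capitals).
Ngp: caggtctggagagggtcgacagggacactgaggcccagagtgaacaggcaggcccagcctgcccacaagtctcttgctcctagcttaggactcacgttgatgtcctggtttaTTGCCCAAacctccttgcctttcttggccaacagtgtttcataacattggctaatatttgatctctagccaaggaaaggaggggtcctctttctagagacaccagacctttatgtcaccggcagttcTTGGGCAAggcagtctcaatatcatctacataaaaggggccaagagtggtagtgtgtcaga
It holds 2 matches, the nearer to its 5′ end from base 113 of the window.

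Among genes of mature phagocytes calls went mostly down. Of 28 tested mature neutrophil genes, 8 fell and 5 rose, with a median of -0.71, and 4 of the 5 rises were stefin genes. The other was Clec4d, a C-type lectin receptor, at 4.53 and 5.20 scaled TPM in wild type against 21.8 and 19.3 in the double mutant (log2 difference 1.88 ± 0.21, SE, adjusted p = 0.00889). The formyl peptide receptor genes Fpr2 and Fpr1, which sense bacteria, fell by 4.60 and 2.95, Fpr2 from 216 and 238 to 10.4 and 6.75 scaled TPM. Itgam, the CD11b integrin chain, fell from 343 and 324 to 50.2 and 40.6 (log2 difference -2.86 ± 0.53, SE, adjusted p = 0.0260). All 8 NADPH oxidase genes, of the enzyme that makes the oxidative burst, had negative differences (7 of 8 with unscaled TPM), with a median of -1.36. Of them Cybb, its catalytic subunit (-2.76), and the proton channel gene Hvcn1 (-1.72) were called. Of 22 adhesion and trafficking genes 9 fell and 1 rose, Itga6 of the laminin receptor, from 22.7 and 21.5 to 48.8 and 45.7 scaled TPM (log2 difference 1.06 ± 0.18, SE, adjusted p = 0.0219).

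Transcription factors of myeloid cells moved in both directions. Of 24 tested, 5 fell and 2 rose (Egr1 and Egr2), with a median of -0.01. Klf5 fell from 23.8 and 23.5 to 2.55 and 2.31 scaled TPM (log2 difference -2.84 ± 0.45, SE, adjusted p = 0.0202), Irf4 by 1.76 and Nfe2, which erythroid and megakaryocytic cells use, by 1.08. The MAX partner gene Mxd1, an antagonist of MYC in maturing neutrophils, fell from 65.6 and 67.6 to 12.1 and 11.6 scaled TPM (log2 difference -2.40 ± 0.41, SE, adjusted p = 0.0228).

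Neighbouring genes of 2 surface protein families fell. In the Ly6 cluster of chromosome 15, described after its values were seen, 7 of the 10 genes in the table were tested, 4 fell and none rose. Ly6g, the neutrophil antigen of the Ly6G sort (75155240 to 75159126, plus strand), had 584 and 704 scaled TPM in wild type against 20.3 and 12.4 in the double mutant (log2 difference -5.25 ± 1.18, SE, adjusted p = 0.0363). Its RUNX1 mutant libraries had 20.4 and 412. Ly6f went from 223 and 258 to 15.3 and 13.97 (log2 difference -3.95 ± 1.01, SE, adjusted p = 0.0469), and Ly6d, a marker of lymphoid precursors, had 17.2 and 23.98 in wild type against 0.367 and 0 in the double mutant. The monocyte antigen gene Ly6c2 had a difference of -1.99 (adjusted p = 0.0820), and Ly6e had 0.26, with values of 297 and 330.0 in wild type against 415 and 338 in the double mutant. Ly6 genes resemble each other, so reads may be split among them.

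Of the 6 tested genes of the IFITM list, which encode membrane proteins that block virus entry, 3 fell and none rose. Ifitm7, which the list leaves out and which was added after its values were seen, rose from 0.401 and 0.481 to 7.82 and 8.06 scaled TPM (log2 difference 2.63 ± 0.19, SE, adjusted p = 0.00157). Of the 3 that fell, Ifitm6 had 3999.9 and 4734 scaled TPM in wild type against 369 and 273 in the double mutant (log2 difference -3.77 ± 0.91, SE, adjusted p = 0.0418), Ifitm3 went from 617 and 717 to 236 and 86.1 (log2 difference -2.21 ± 0.52, SE, adjusted p = 0.0393), and Ifitm1 from 85.1 and 103 to 15.7 and 8.61 (log2 difference -2.90 ± 0.35, SE, adjusted p = 0.0112). The groups did not overlap in these genes. The wider interferon list had 4 of 28 genes lower and none higher, with a median of -0.57 (-0.02 with unscaled TPM). Isg20, an RNA exonuclease, fell by 1.52. Irf1 fell by 0.43, and its difference was 0.19 with unscaled TPM.

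Further genes were among the 15 largest falls once immunoglobulin segments and predicted genes were left out. Stk39 (chromosome 2, 68210445 to 68472268, minus strand), a kinase of ion transport, had 76.3 and 98.5 scaled TPM in wild type against 0.294 and 0.0782 in the double mutant (log2 difference -6.21 ± 0.90, SE, adjusted p = 0.0173). RUNX1 mutant HSPC had 0.229 and 10.7 and CBL mutant HSPC 30.7 and 24.1. Cystm1 went from 22.4 and 21.8 to 0.352 and 0.225 (log2 difference -4.16 ± 0.46, SE, adjusted p = 0.00867) and the endothelial lipase gene Lipg from 14.4 and 14.6 to 0.133 and 0.0242 (log2 difference -3.85 ± 0.56, SE, adjusted p = 0.0174). Il1f9, a cytokine of the interleukin 1 family, went from 35.96 and 37.8 to 1.58 and 1.69 (log2 difference -3.85 ± 0.16, SE, adjusted p = 0.000277), and the inhibitory receptor gene Pilra from 71.2 and 72.8 to 3.50 and 5.15 (log2 difference -3.79 ± 0.58, SE, adjusted p = 0.0191). In all 5 genes every double mutant library was below every other HSPC library except for Stk39 and Cystm1, where RUNX1 mutant library 1 reached 0.229 and 0.0638.

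In 14 genes the double mutant was under 0.1 scaled TPM in both libraries while wild type had 5 or more in both, and in 1 gene the reverse held. Of the 14, 11 were immunoglobulin genes, and the rest were the tight junction gene Cldn1, Zfp503 and Gm16569. Cldn1 (chromosome 16, 26356642 to 26371841, minus strand) had 11.5 and 13.5 scaled TPM in wild type libraries, 0.0524 and 0.0572 in double mutant ones, 20.9 and 15.1 in CBL mutant and 0 and 0.167 in RUNX1 mutant HSPC (log2 difference -3.68 ± 0.22, SE, adjusted p = 0.000906). The 4 libraries with a RUNX1 mutation were thus at or below 0.167 scaled TPM. Cldn1 was called whichever of the 8 libraries was left out.

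Of 30 tested genes of ribosome biogenesis, 16 rose and none fell, against 5.55% called higher over all genes. All 30 had a positive difference under every scaling tried, between 0.37 and 1.29 with the scaling used here. Pes1, of the complex that processes the large subunit RNA, had 66.9 and 69.7 scaled TPM in wild type against 136 and 139 in the double mutant (log2 difference 0.999 ± 0.15, SE, adjusted p = 0.0187). Nop56, a core protein of the particles that methylate ribosomal RNA, went from 125 and 132 to 267 and 288 (log2 difference 1.11 ± 0.17, SE, adjusted p = 0.0199), and Rrp1b, another processing factor of the nucleolus, from 13.4 and 11.4 to 33.4 and 30.3 (log2 difference 1.29 ± 0.21, SE, adjusted p = 0.0209). The summed level of the list was 2062 and 2195 scaled TPM in wild type libraries, 3646 and 3710.3 in double mutant ones, 2591 and 2667 in CBL mutant and 2061 and 1594 in RUNX1 mutant HSPC. The double mutant libraries were above the other 6. With any of the 4 compared libraries left out no member was called, and the median stayed between 0.71 and 0.80. Without the RUNX1 mutant pair, 29 were called higher, against 19.8% of all genes.

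The promoter of Pes1 is shown (chr11:3963725-3964024, plus strand, RefSeq in GRCm38.p6) as 1 of 6 among 26 promoters of this list that hold CACGTG, the E-box that MYC can bind and that reads the same on both strands, here in capitals.
Pes1: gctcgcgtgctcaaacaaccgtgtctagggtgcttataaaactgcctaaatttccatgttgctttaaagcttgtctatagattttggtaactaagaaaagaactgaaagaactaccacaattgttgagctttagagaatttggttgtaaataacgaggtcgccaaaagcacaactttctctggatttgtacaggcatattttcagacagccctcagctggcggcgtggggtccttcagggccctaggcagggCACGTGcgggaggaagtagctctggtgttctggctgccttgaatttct
CACGTG was found in 10.8% of the promoters of tested genes, in 14.4% of those called higher, in 8.82% of those called lower and in 7.15% of the whole table.

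Further genes of biosynthesis followed the same direction. Of 25 tested genes of MYC function and biosynthesis, 9 rose and 1 fell (Mxd1), with a median of 0.58. Shmt2, which feeds the folate cycle from serine in mitochondria, went from 52.8 and 52.4 to 101 and 97.6 scaled TPM (log2 difference 0.91 ± 0.12, SE, adjusted p = 0.0152). The amino acid transporter gene Slc7a5 went from 24.9 and 26.2 to 56.6 and 53.2 (log2 difference 1.07 ± 0.17, SE, adjusted p = 0.0199), and Gart, of purine synthesis, and Ncl, nucleolin, rose by 0.61 and 0.82. Of 74 cytosolic ribosomal protein genes, 12 rose and none fell, with a median of 0.46 and all 74 differences positive, Rpl10a with 135 and 129 scaled TPM in wild type against 254 and 255 in the double mutant (log2 difference 0.94 ± 0.20, SE, adjusted p = 0.0317). These genes took 8.99% and 9.20% of TPM in wild type against 19.7% and 19.1% in the double mutant. Of 29 translation factor genes 4 rose, all subunits of the initiation factor eIF3 (Eif3b, Eif3f, Eif3i and Eif3l, between 0.46 and 0.62), and none fell.

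Lists of mitochondrial genes had smaller medians. Of 23 genes of mitochondrial quality control and prohibitins, 8 rose and none fell, with a median of 0.37. Tomm40, the pore of protein import, went from 50.6 and 56.6 to 96.02 and 103 scaled TPM (log2 difference 0.88 ± 0.12, SE, adjusted p = 0.0151), and the chaperone gene Hspa9 and the protease gene Clpp rose by 0.81 and 0.64. Of 23 genes of the TCA cycle 6 rose and none fell, with a median of 0.31. Idh3a and Pdha1 rose by 0.62 and 0.49, and Idh2, which is itself mutated in some myeloid neoplasms, by 0.75. Of 77 mitochondrial ribosomal protein genes 12 rose and none fell (median 0.28), led by Mrpl23 (from 15.3 and 17.3 to 33.8 and 33.7 scaled TPM, log2 difference 1.01 ± 0.12, SE, adjusted p = 0.00960). Of 91 nuclear respiratory chain genes 6 rose and 1 fell (median 0.21), which is near the background of 5.55%. Ndufaf4, an assembly factor of complex I, rose by 1.08, and Cox6b2 fell by 1.42. None of 13 mitochondrially encoded genes was called. In the fit of 6 libraries 2 of them were called higher, against 19.8% of all genes.

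**Figure D4:**
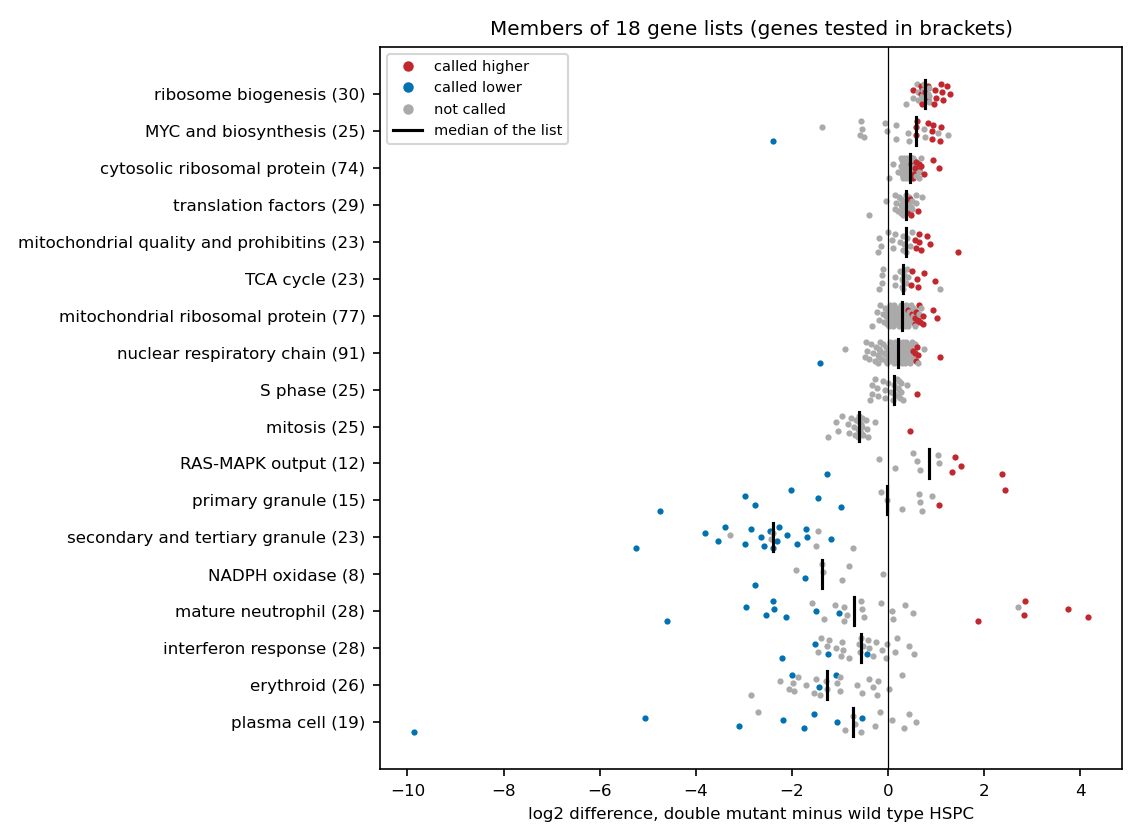
Log2 difference, double mutant minus wild type HSPC, of each tested member of 18 gene lists (1 point for each gene, called genes in colour, black bar at the median of the list). Points of ribosome biogenesis genes lie between 0.37 and 1.29, those of secondary and tertiary granule genes all lie below 0, and those of mitosis genes lie below 0 with 1 exception, Pttg1.

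Cell cycle genes gave few calls. Of 25 S phase genes 1 rose (Ung, a DNA repair glycosylase, 0.59) and none fell, with a median of 0.11. Of 25 mitosis genes 24 had negative differences, with a median of -0.61, but none was called lower and 1, the securin gene Pttg1, was called higher (0.45). In the fit without the RUNX1 mutant pair 23 of the 25 were called lower, against 20.2% of all genes. The summed mitosis level was 2406 and 2476 scaled TPM in wild type libraries, 1417 and 1704 in double mutant ones, 1755 and 1867 in CBL mutant and 1083 and 2297 in RUNX1 mutant HSPC, so the double mutant and wild type did not overlap and the RUNX1 mutant pair spanned both. With unscaled TPM the median was 0.02 and 14 of the 25 differences were positive, so this direction holds only relative to the typical gene.

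Among 18 genes of the G1 phase, 2 rose and 3 fell. Beside Ccnd1, Cdk4, the kinase partner of cyclin D1, rose from 143 and 161 to 235 and 236 scaled TPM (log2 difference 0.63 ± 0.13, SE, adjusted p = 0.0322). The inhibitor genes Cdkn2c and Cdkn1b fell, Cdkn2c from 83.95 and 93.04 to 27.96 and 25.9 (log2 difference -1.68 ± 0.19, SE, adjusted p = 0.00867) and Cdkn1b by 0.71, and Rb1, the retinoblastoma gene, fell by 0.92. In Cdkn2c the double mutant libraries were below all other HSPC libraries.

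Of 18 p53 target genes 1 rose and 5 fell, 9 differences being positive and 9 negative. Pmaip1, which encodes the BH3-only protein NOXA, rose from 2.99 and 2.52 to 9.40 and 11.1 scaled TPM (log2 difference 1.58 ± 0.20, SE, adjusted p = 0.0130), while Trp53inp1 and Gadd45a fell by 1.72 and 1.39. Of 20 genes of the BCL2 family and cell death 1 rose and 1 fell (5% each), below the 5.55% and 8.20% of all genes. Pmaip1 was the one that rose. Xiap, a caspase inhibitor, fell by 0.56, though it had a difference of 0.06 with unscaled TPM. Of 22 genes of endoplasmic reticulum stress none rose and 3 fell (Chac1, Dnajb9 and Ddit3, between -1.68 and -0.70). Of 26 genes of autophagy and lysosomes 1 rose and 6 fell, among them Map1lc3a, an LC3 gene, from 26.3 and 32.04 to 4.16 and 4.96 (log2 difference -2.44 ± 0.30, SE, adjusted p = 0.0122). Of 22 cholesterol synthesis genes 4 fell and none rose, Msmo1 from 23.6 and 25.9 to 12.6 and 10.3 (log2 difference -1.06 ± 0.14, SE, adjusted p = 0.0151).

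Called antioxidant genes went in both directions, at shares near those of all genes. Of 24 tested, 2 rose (8.33%, against 5.55% of all genes) and 3 fell (12.5%, against 8.20%), with a median of -0.04. Prdx4, the peroxiredoxin of the endoplasmic reticulum, went from 23.6 and 23.7 to 80.1 and 75.2 scaled TPM (log2 difference 1.67 ± 0.25, SE, adjusted p = 0.0187), while Prdx5 went from 1121 and 1292 to 353 and 368 (log2 difference -1.74 ± 0.40, SE, adjusted p = 0.0369) and Nqo1 from 6.41 and 7.05 to 1.37 and 1.62 (log2 difference -1.63 ± 0.31, SE, adjusted p = 0.0259). Of 20 glycolysis genes 2 fell (10%, against 8.20% of all genes) and none rose. The 2 were the transporters of lactate and glucose, Slc16a3 (-1.54) and Slc2a3 (-1.56).

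Innate sensors also went in both directions. Of 18 genes of Toll-like receptors and adaptors 3 rose and 1 fell. Tlr1 and Tlr6, which pair with TLR2 to sense lipopeptides, rose by 1.52 and 1.16, Tlr1 from 1.85 and 1.82 to 7.26 and 6.98 scaled TPM, and the kinase gene Irak2 fell by 1.02. Of 18 genes of NF-kB and inflammation 1 fell, Relb (-1.32), and none rose. Of 16 inflammasome and pyroptosis genes 2 fell, Gsdme (-2.12) and Il1rap (-0.70). None of 13 MHC class II and dendritic genes, 14 MHC class I presentation genes or 18 splicing factor genes of myelodysplastic syndrome was called. At an adjusted p under 0.05 in the fit of 6 libraries there were 2 higher and none lower, 4 higher and 3 lower, and 9 higher and 1 lower of these genes. Over all genes that fit called 19.8% higher and 20.2% lower.

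Antibody transcripts were nearly absent from the double mutant. Jchain, which joins antibody chains into polymers, had 1461 and 1589 scaled TPM in wild type against 0.485 and 0.793 in the double mutant (log2 difference -9.87 ± 0.67, SE, adjusted p = 0.00145). In CBL mutant HSPC it had 21.5 and 35.3 and in RUNX1 mutant HSPC 60.03 and 309. Mzb1, a chaperone of antibody secretion, went from 49.3 and 52.7 to 1.16 and 0.133 (log2 difference -5.05 ± 0.79, SE, adjusted p = 0.0198). Of 19 tested plasma cell genes 8 fell and none rose, with a median of -0.73. Of 22 tested immunoglobulin genes 20 fell and none rose, and Igkj4, at 3132 and 3235 scaled TPM in wild type, and Ighg2c, at 706 and 742, were listed at 0 in both double mutant libraries. The immunoglobulin share of TPM was 6.41% and 6.63% in wild type against 0.00834% and 0.00557% in the double mutant. Immunoglobulin segments are near copies of each other, so values of single segments are uncertain.

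Other lymphoid genes were low or fell. Of 22 genes of B cell precursors 10 were tested and 2 fell, Cd79a of the B cell receptor (from 31.5 and 30.9 to 3.61 and 0.250 scaled TPM, log2 difference -3.75 ± 0.80, SE, adjusted p = 0.0324) and Bank1 (-1.07). Of 6 tested genes of natural killer and cytotoxic cells 3 fell. Nkg7, a granule membrane protein of cytotoxic cells that is also expressed in early myeloid cells, had 217 and 251 scaled TPM in wild type against 7.46 and 8.05 in the double mutant (log2 difference -4.74 ± 0.68, SE, adjusted p = 0.0169), and Ccl5 and Cd7 fell by 1.65 and 1.46. Of 20 T cell genes 6 were tested and none was called, and the markers Cd3e, Cd3g and Trac were at 0 in both double mutant libraries. The T cell factor gene Tcf7 had 2.35 and 2.64 scaled TPM in wild type against 0.779 and 1.02 in the double mutant, and 95.4 and 58.9 in CBL mutant HSPC.

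Erythroid genes had a negative median. Of 26 tested 3 fell (11.5%, against 8.20% of all genes) and none rose. The median was -1.28, with 24 negative differences (19 with unscaled TPM). In the fit without the RUNX1 mutant pair 17 were called lower, against 20.2% of all genes. Gata1, the erythroid transcription factor, had 18.8 and 20.9 scaled TPM in wild type against 9.76 and 4.41 in the double mutant (log2 difference -1.45 ± 0.30, SE, adjusted p = 0.0308), and Cldn13 fell by 2.004. Of 18 megakaryocyte and platelet genes 2 fell (11.1%, against 8.20% of all genes) and none rose. The median was 0.48, with 14 positive and 4 negative differences, so the 2 called genes went against most of the list. Without the RUNX1 mutant pair 7 were called higher and 3 lower, against 19.8% and 20.2% of all genes. Gp1bb, of the receptor for von Willebrand factor, went from 6.33 and 6.67 to 0.695 and 0.796 (log2 difference -2.10 ± 0.23, SE, adjusted p = 0.00852), and the tetraspanin gene Cd9, which neutrophil precursors also express, from 213 and 249 to 32.7 and 19.4 (log2 difference -3.14 ± 0.44, SE, adjusted p = 0.0161). Of 14 genes of mast cells, basophils and eosinophils 1 rose (7.14%, against 5.55% of all genes) and 2 fell (14.3%, against 8.20%). Differences were positive in 7 and negative in 7, and the largest positive one, 3.21, was not called. With the RUNX1 mutant pair left out 4 were called higher and 2 lower, against 19.8% and 20.2% of all genes. Hdc, which makes histamine, rose by 0.93, Alox5, of leukotriene synthesis, fell by 1.87, and Fcer1a, a chain of the IgE receptor, had 6.85 and 7.83 in wild type against 0.308 and 0 in the double mutant.

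The same genes could be followed into Ly6G+ cells of both genotypes, which are other libraries. Of the 645 genes higher in double mutant HSPC, 65.6% were higher in double mutant than in wild type Ly6G+ cells without overlap of the libraries, against 30.8% of all tested genes, and 5.74% were lower. Of the 953 lower genes 76.4% were lower there, against 30.3% of all genes, and 2.31% were higher. Double mutant Ly6G+ library 1 stood apart from library 2, with a neutrophil marker share of 9.16% against 31.9%. With library 2 alone, the difference from the mean of wild type was positive in 82.9% of the higher genes, in 13.1% of the lower genes and in 50.2% of all genes. No test was made on these shares.

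Runx1 had 13.8 and 11.2 scaled TPM in wild type against 80.1 and 141 in double mutant Ly6G+ cells, and Runx3 had 6.92 and 6.76 against 90.7 and 147. Both genes were thus higher in the double mutant in both cell populations. Stk39 had 91.6 and 105 in wild type against 0.0869 and 0.249 in double mutant Ly6G+ cells, and Cldn1 had 23.9 and 29.4 against 0.0519 and 0.169, so both were near 0 in each double mutant library of the series. Ltf had 8700.2 and 9328 in wild type against 1758 and 9118 in double mutant Ly6G+ cells, and library 2 lay within the wild type range. Fn1 had 6.54 and 8.02 against 1.44 and 28.2, which overlapped.

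**Figure D5:**
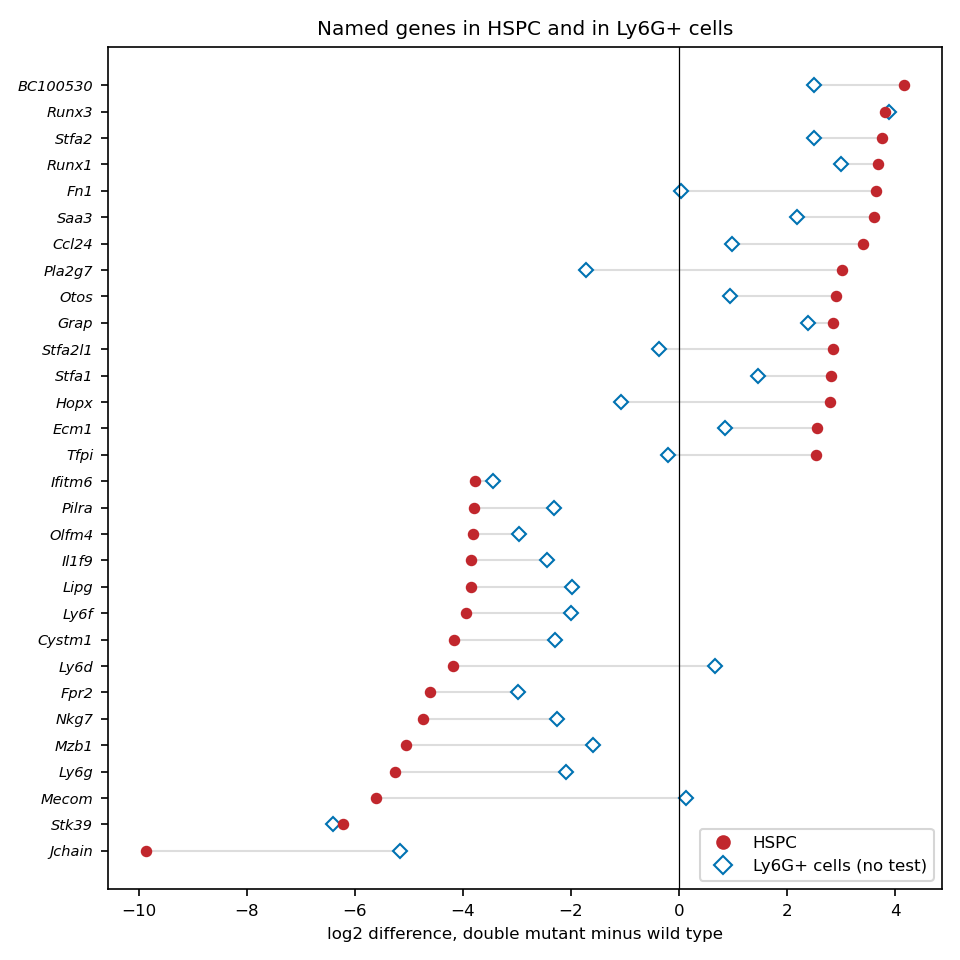
Log2 difference, double mutant minus wild type, of 30 named genes in HSPC (filled circles, 2 libraries for each genotype) and in Ly6G+ cells (open diamonds, 2 for each genotype, no test). Runx3, Stk39 and Ifitm6 lie close together in both populations, while Pla2g7, Hopx and Stfa2l1 lie above 0 in HSPC and below 0 in Ly6G+ cells. For Stfa2l1 the Ly6G+ libraries overlapped, with 1334 and 1276 scaled TPM in wild type against 500 and 2056 in the double mutant.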

How the data were processed

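RNA of 12 libraries, 2 in each of 6 groups, was measured as TPM. The authors made these deposited TPM values with bcl2fastq, CASAVA 1.8 and kallisto on mm10, per the submitters' processing notes, and the transcript annotation and read depth are not given in the sources used here. Deposited TPM were divided by trimmed-mean library factors (trims 0.3 and 0.05), computed over the genes tested and separately for HSPC and Ly6G+ libraries. Genes with 1 TPM or more in 2 of the 4 compared libraries were kept. Differences of log2(scaled TPM + 1) came from limma 3.58.1 in R 4.3.3, fitted to the 8 HSPC libraries with a mean per group and moderated variances, with Benjamini-Hochberg adjustment over all genes. The fit was tested on simulated data. Coordinates are GENCODE on GRCm38 and promoters RefSeq on GRCm38.p6.

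Named were Cbl, Runx1, Mecom, Ngfr, Kit and Cd34, the 15 largest called changes in each direction at a mean log2 level of at least 2 without overlap (leaving out predicted genes other than BC100530 and immunoglobulin and T cell receptor segments), and up to 4 called members for each direction of a list. Flt3, Npm1, Ngp, Cldn1, Gm15272, Fbp1, Upp1, Ifitm7, Ly6c2, Ly6e and the stefin A genes other than Stfa1, Stfa2, Stfa2l1 and BC100530 were added after their values were seen. Genes and lists were chosen with earlier results of these data known. Alternatives were other scalings, pseudocounts of 0.1 and 5, other filters, sample sets and variance settings, and each library left out. Some single-gene results are not reported here.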

Additional observations from a re-analysis of the deposited data

Results flagged for a closer look

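In 8 of the named genes both double mutant libraries lay on 1 side of both wild type libraries in HSPC and on the opposite side in Ly6G+ cells. The difference between the 2 populations was not tested. For Mecom the log2 difference was -5.61 in HSPC and 0.13 in Ly6G+ cells, where all 4 values were under 0.2 scaled TPM. For Ngfr, not called in HSPC, it was -1.30 and 5.49. The other 6 genes were called higher in HSPC and lay lower in Ly6G+ cells. The log2 difference was 3.02 in HSPC and -1.73 in Ly6G+ cells for Pla2g7, 2.79 and -1.08 for Hopx, and 1.65 and -3.21 for Dusp1. It was 1.88 and -2.80 for Clec4d, 0.93 and -2.11 for Hdc, and 1.16 and -1.53 for Tlr6.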

How the results depend on the processing

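The count of called genes, 1598, was 4691 with the 4 compared libraries alone, 4646 without the RUNX1 mutant pair, 4989 with array weights, 4560 with unscaled TPM, 592 without a filter on low values, 246 with all 12 libraries and 38 when a log2 difference beyond 1 was tested. With any 1 library left out it ranged from 21 to 4645. Where 1 library of a group was left, its spread was assumed to be that of the others. Higher genes were 40.4% of calls, 90.4% with unscaled TPM and 50.7% after TPM were rescaled without S100a8, S100a9 and immunoglobulin genes. The sign turned with unscaled TPM for Grb2 (0.19), Ifnar2 (0.12), Irf1 (0.19) and Xiap (0.057), by the construction of that setting, and for none of the other named genes under any alternative. Over the 30 largest changes, 521 of 690 values under an alternative passed the same threshold and 0 turned. With the replicate number as a replicate block the count was 1623, of which 1382 were among the main calls. Deviations of same-numbered libraries had correlations from -0.01 to 0.19, so the numbers were not taken as pairs. Read depth is unknown, so counting error could not be set beside low values.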

Other observations

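A few genes held their call whichever of the 8 HSPC libraries was left out. They numbered 20, of which 3 were higher and 17 lower, and 8 of the lower ones were immunoglobulin genes. Beside Mecom and Cldn1 they included genes of intermediary metabolism that moved in opposite directions, chosen here after their values were seen. Fbp1, which encodes fructose-1,6-bisphosphatase of gluconeogenesis, had 11.2 and 11.7 scaled TPM in wild type against 61.5 and 80.7 in the double mutant, a log2 difference of 2.52. It had 12.7 and 17.2 in CBL mutant and 14.4 and 15.5 in RUNX1 mutant HSPC, so that the double mutant alone was high. Upp1, which encodes the uridine phosphorylase that releases ribose phosphate, had 12.02 and 12.4 in wild type against 0.511 and 0.143 in the double mutant, with 5.65 and 4.94 and 6.03 and 7.04 in CBL mutant and RUNX1 mutant HSPC. The third gene that rose beside Fbp1 and Gm15272 was Ifitm7, which lies on chromosome 16, apart from the IFITM genes of chromosome 7 that fell.

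Gm15272, annotated as a processed pseudogene on chromosome 10 (24514279 to 24514511), followed the CBL mutation. It had 509 and 663 scaled TPM in CBL mutant and 663 and 751 in double mutant HSPC, against 1.16 and 0 in wild type and 0.957 and 0 in RUNX1 mutant HSPC. In Ly6G+ cells it had 109.6 and 132 in the double mutant against 0.456 and 0 in wild type. All 6 libraries that carry a CBL mutation were at 109.6 scaled TPM or more. The values do not separate reads of this locus from those of any introduced sequence that it resembles.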
